A study of Homo sapiens with 17 samples.

Results

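The histone deacetylase inhibitor MS275 was added to L363 cells that also received 10 nM rapamycin, and these cells were compared with L363 cells given 10 nM rapamycin only. L363 is a human multiple myeloma line, that is, a cultured line of malignant plasma cells. The comparison holds 5 of the 17 arrays of the series, chosen by their titles: 2 arrays of 10 nM rapamycin with 0.5 uM MS275, and 3 arrays of 10 nM rapamycin without MS275. The other 12 arrays are 3 each of 1 nM rapamycin with 0.5 uM MS275, of 1 nM rapamycin, of 0.5 uM MS275 without rapamycin and of untreated cells. They share the estimate of the spread and serve for comparison. All cells were harvested at 48 hours. The combination of 10 nM rapamycin with MS275 has 2 arrays because the submitters dropped 1 array after quality control. Nothing in the labels tells if replicates came from separate cultures, so p-values measure the spread between these arrays, which may be technical. The results come from 1 cell line.

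MS275 is also known as entinostat. It inhibits the class I histone deacetylases, enzymes that remove acetyl groups from histones and other proteins and work in co-repressor complexes that hold genes in a low state. Rapamycin binds the protein FKBP1A, and the pair inhibits mTOR complex 1, a kinase complex that couples growth factors and amino acids to protein synthesis and cell growth. Both drugs are known to slow the division of myeloma cells, and the series title names the combined inhibition of mTOR and histone deacetylases and the breakdown of the transcription factor MYC. The comparison asks what MS275 changed in cells that also received an mTOR inhibitor.

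The values are log2 signals, so a difference of 1 is a 2-fold difference. A gene is represented by its brightest singly named probe set, and 19775 genes were tested. Plasma cell identity was checked first. The 10 defining plasma cell markers averaged 10.83 to 11.14 per array with MS275 and 11.10 to 11.55 without it. The dimmest of them was CD38 (7.48) and the brightest IRF4 (12.59, means over these 5 arrays), against a median gene level of 5.99 on 10 nM rapamycin. None of the 10 passed the test described below. SLAMF7 (-1.85), MZB1 (-1.06), SDC1 (-0.78), TNFRSF17 (-0.54) and IRF4 (-0.48) were lower in both arrays with MS275 than in all 3 without it. In 20.9% of all genes the groups lay apart in either direction. POU2AF1 (-0.05), CD38 (0.03), XBP1 (0.21), JCHAIN (0.45) and PRDM1 (0.59) overlapped between the groups. Median signals over all 17 arrays ran from 5.09 to 5.36. Untreated replicate 1 and replicate 1 of 1 nM rapamycin with MS275 had a narrower spread of values than the other 15 arrays (SD over probe sets of 2.14 and 2.15), and counts are also given without them. The combination arrays had an SD of 2.27 and 2.34. In a bulk RNA sample, fewer cells in a given state and less RNA per cell cannot be told apart.

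Adding MS275 to 10 nM rapamycin changed 86 of the 19775 genes at a limma adjusted p under 0.05, called the threshold from here on. They are 0.435% of all genes, of which 59 rose (0.298%) and 27 fell (0.137%). The rises were the larger changes: the largest was 3.39 on the log2 scale, in the adhesion molecule NCAM1, and the largest fall was -2.30, in the ribonucleotide reductase subunit RRM2. The genes that rose had a median level of 7.13 with MS275 and 5.17 without it. On 10 nM rapamycin 36 of the 59 (61.0%) lay under the median gene, which by definition splits all genes into equal parts. The genes that fell were bright without MS275, with a median level of 6.94 with it and 8.62 without it, and 1 of the 27 (3.7%) lay under the median gene on 10 nM rapamycin. The rapamycin level is 1 side of the change by which these genes were chosen. Low levels among the rises and high levels among the falls are therefore partly set by the choice. In all 86 genes the 2 combination arrays lay apart from the 3 rapamycin arrays, which 20.9% of all genes tested also did. The median change over all genes was -0.01, and a gene's change had a 95% confidence interval of 0.60 to either side at the median.

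The number of genes depended on single arrays. It was 16 and 11 without combination replicates 1 and 2, and 44, 38 and 32 without 10 nM rapamycin replicates 1, 2 and 3. It was 53 and 57 without replicates 1 and 3 of 1 nM rapamycin, and 157 without untreated replicate 1. Without both narrow arrays 262 genes passed, 162 higher and 100 lower, all 86 among them. With only the 5 compared arrays in the fit 0 genes passed in limma, with 1703 at an unadjusted p under 0.05 (the fit of all 17 arrays had 1452). In total 7 of the 86 genes passed whichever single array was left out: AHNAK, NCAM1, CYP26B1, TPTE2P6 and CDON rose, and BDH1 and ZBP1 fell.

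**Figure D1:**
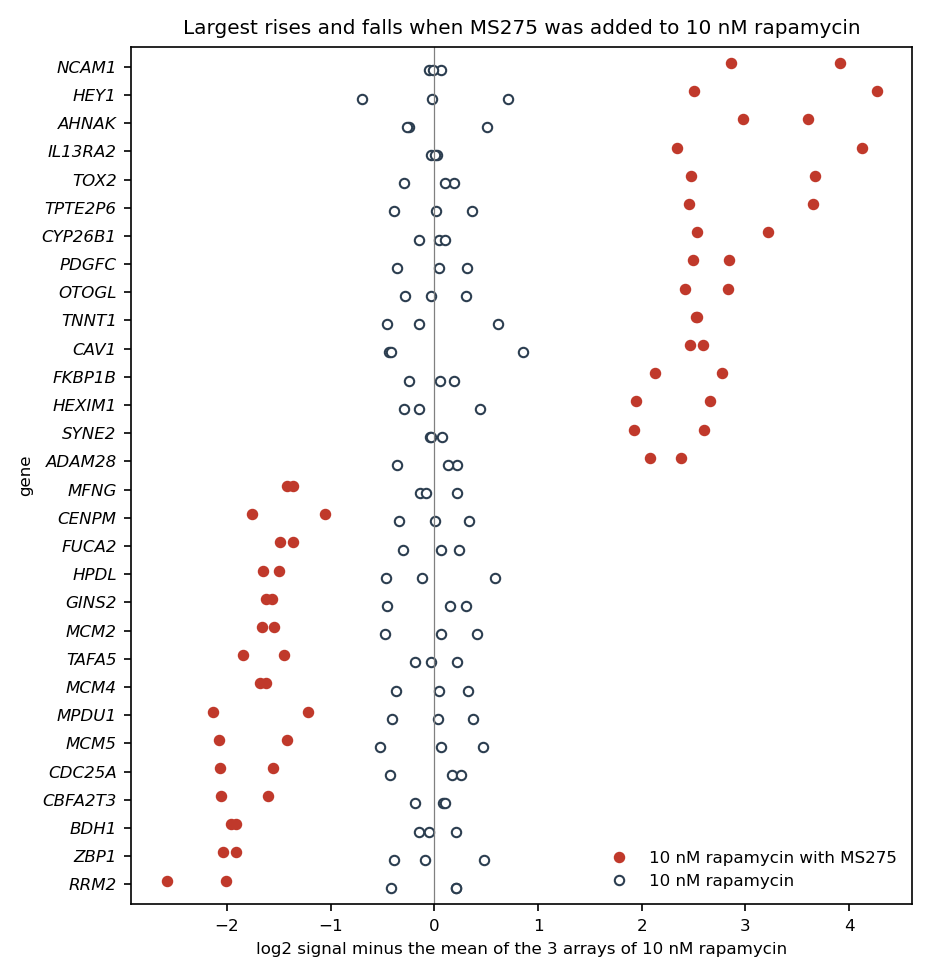
Log2 signal of each array less the mean of the 3 arrays of 10 nM rapamycin, for the 15 genes that rose most and the 15 that fell most. Each filled point is 1 of the 2 arrays with MS275 and each open point 1 of the 3 arrays without it. No filled point overlaps the open points of its gene, which the rule that chose these genes required. NCAM1 (3.39) and RRM2 (-2.30) have the largest mean changes.

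Of the 27 genes that fell, 6 serve DNA replication, its nucleotide supply or the start of S phase. RRM2 encodes the regulated subunit of ribonucleotide reductase, which makes deoxynucleotides from ribonucleotides. Its log2 signal was 6.95 and 7.51 with MS275, against 9.11, 9.74 and 9.74 without it. Every array with MS275 was lower, and the change was -2.30 ± 0.42 (SE), a 4.92-fold difference (adjusted p = 0.0276). A second, dimmer probe set of RRM2 gave -2.29 ± 0.77 and did not pass. Of 13 measured genes of deoxynucleotide supply RRM2 was the 1 that fell, and 0 rose. That is 7.69% of the list, against falls in 0.137% of all genes. Lists were chosen with earlier results of these data known, so the share of any list here is a description. The list's median change was -0.47, against -0.01 over all genes. TYMS, which makes thymidylate, differed by -0.93 ± 0.39 and NME1, a nucleoside diphosphate kinase, by -0.99 ± 0.36, neither past the threshold (adjusted p = 0.573 and 0.424).

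CDC25A is a phosphatase that activates the cyclin-dependent kinases at the start of S phase. Its log2 signal was 6.85 and 6.34 with MS275, against 7.98, 8.58 and 8.67 without it. Both arrays with MS275 lay below all 3 without it, and the change was -1.82 ± 0.23 (adjusted p = 0.00233). Dimmer probe sets of CDC25A gave -1.07 ± 0.25 and -0.29 ± 0.23 and did not pass. CDC25A was the 1 gene that fell among 19 measured genes of E2F and G1/S control (5.26%, against 0.137% of all genes). There were 0 rises, and the list's median was -0.36. The transcription factors MYBL2 (-1.05 ± 0.25), E2F2 (-1.35 ± 0.35) and FOXM1 (-1.23 ± 0.35) did not pass (adjusted p = 0.101, 0.141 and 0.19).

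The MCM2 to MCM7 proteins form the ring of the replicative helicase, and CDC45 and the GINS complex switch it on at origins. MCM5 had a log2 signal of 8.33 and 7.68 with MS275, against 9.23, 10.22 and 9.82 without it (a change of -1.75 ± 0.32, adjusted p = 0.0269). MCM4 had 7.29 and 7.23 with MS275, against 8.54, 9.23 and 8.96 without it (-1.65 ± 0.24, adjusted p = 0.00573). MCM2 had 8.69 and 8.57 with MS275, against 9.76, 10.64 and 10.30 without it (-1.60 ± 0.29, adjusted p = 0.0269). These 3 of the 6 ring subunits fell, and the groups did not overlap in any of them. The other ring subunits did not pass, with differences of -0.43 ± 0.23 for MCM3, -1.21 ± 0.56 for MCM6 and -0.92 ± 0.30 for MCM7. GINS2, 1 of the 4 GINS subunits, had 6.53 and 6.59 with MS275, against 7.69, 8.30 and 8.46 without it. It fell by 1.59 ± 0.24 on the log2 scale (adjusted p = 0.00817), while CDC45 differed by -1.28 ± 0.28 and did not pass (adjusted p = 0.0668). MCM4 and MCM5 each have further probe sets: the second of MCM5 changed by -1.55 ± 0.30, and the 4 others of MCM4 gave -1.34 to -0.05 without passing. Dimmer probe sets of GINS2 gave 0.11 ± 0.22 and -0.15 ± 0.24 and did not pass.

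Of the 43 measured genes of the MCM, origin and fork list these 4 fell and 0 rose, and 39 did not pass. The falls are 9.3% of the list, against 0.137% of all genes. The list's median was -0.60, and 39 of the 43 changes were below 0, against 10388 of 19775 over all genes. The count of 4 was 0 with either combination array left out, 2 without 10 nM rapamycin replicate 2 or 3, 7 without untreated replicate 1 and 8 without both narrow arrays. With any 1 of the 17 arrays left out, the change ran from -2.58 to -2.01 for RRM2, from -2.07 to -1.56 for CDC25A and from -2.08 to -1.43 for MCM5. RRM2, MCM5 and MCM2 did not pass with either combination array left out or without 10 nM rapamycin replicate 2 or 3. GINS2 and MCM4 did not pass with either combination array left out, and CDC25A did not pass without combination replicate 2. Mitotic genes showed 1 fall among 45 measured (2.22%, against 0.137% of all genes), with a median of -0.42. It was CENPM, a centromere protein (-1.40 ± 0.26, adjusted p = 0.0335). CENPM did not pass with either combination array left out, without 10 nM rapamycin replicate 2 or 3, or without replicate 1 or 3 of 1 nM rapamycin (changes from -1.76 to -1.05). The proliferation marker MKI67 (-0.69 ± 0.23) and the condensin subunit NCAPH (-0.92 ± 0.28) did not pass.

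**Figure D2:**
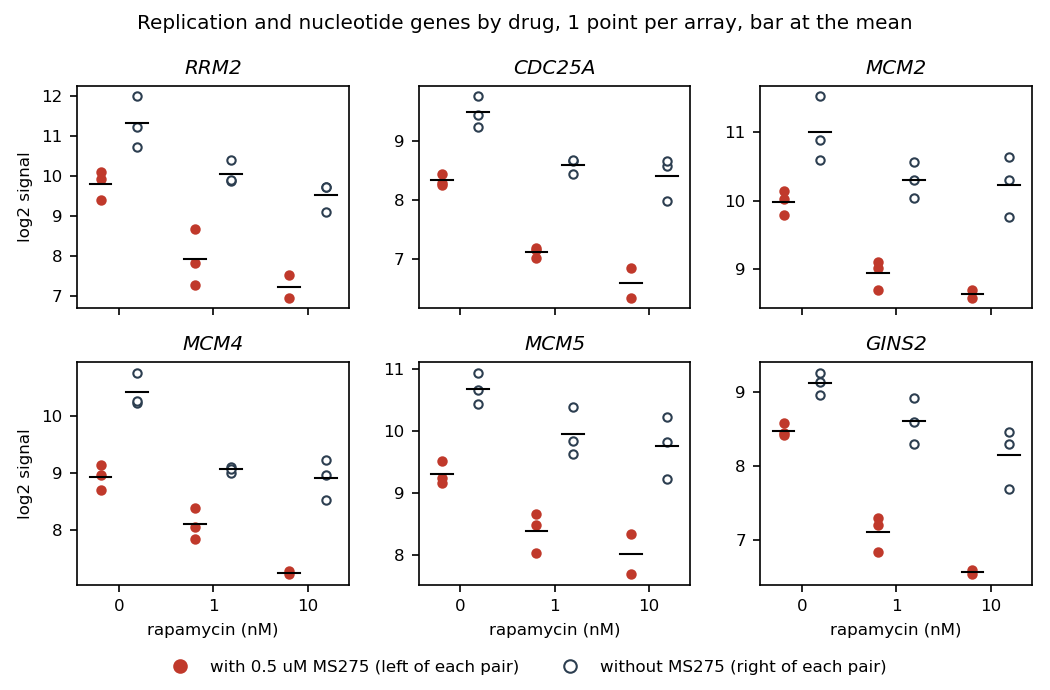
Log2 signal of RRM2, CDC25A, MCM2, MCM4, MCM5 and GINS2 (y axis) by rapamycin dose in nM (x axis), with 0.5 uM MS275 (filled points, left) and without it (open points, right); each point is 1 array and each bar a group mean. At 10 nM every array with MS275 lies below every array without it, for example at 6.95 and 7.51 against 9.11 to 9.74 for RRM2.

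Levels in untreated cells and with MS275 alone give these falls their scale. RRM2 had a mean of 7.23 ± 0.40 with both drugs (SD, n = 2), 9.53 ± 0.36 with 10 nM rapamycin, 9.81 ± 0.37 with MS275 only and 11.32 ± 0.64 in untreated cells (SD, n = 3 each). In MCM4 the means were 7.26 ± 0.04 with both drugs, 8.91 ± 0.35 with 10 nM rapamycin, 8.94 ± 0.22 with MS275 and 10.41 ± 0.30 in untreated cells. In CDC25A they were 6.60 ± 0.36 with both drugs, 8.41 ± 0.37 with 10 nM rapamycin, 8.33 ± 0.10 with MS275 and 9.48 ± 0.26 in untreated cells. Of the 27 genes that fell, 18 had a lower mean on 10 nM rapamycin than in untreated cells, a comparison that shares the rapamycin arrays and is given as a description. The same share over all genes was not counted, so the 18 cannot be read as a trait of the genes that fell.

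The start-site regions of RRM2, CDC25A and GINS2 are shown because these genes fell together and E2F proteins are the known activators of many replication genes. The 250 bases before the start site were taken from RefSeq (GRCh38.p14), in which 20 of the 27 genes that fell and 43 of the 59 that rose had an entry. They lie at chr2:10122489-10122738 on the plus strand for RRM2, at chr3:48188418-48188667 on the minus strand for CDC25A and at chr16:85688955-85689204 on the minus strand for GINS2, each printed 5′ to 3′ along the gene. Capitals mark an E2F motif (TTTCCCGC, TTTCGCGC, TTTGCCGC or TTTGGCGC) or a CCAAT box (CCAAT), each on either strand; no motif overlaps another here.
RRM2: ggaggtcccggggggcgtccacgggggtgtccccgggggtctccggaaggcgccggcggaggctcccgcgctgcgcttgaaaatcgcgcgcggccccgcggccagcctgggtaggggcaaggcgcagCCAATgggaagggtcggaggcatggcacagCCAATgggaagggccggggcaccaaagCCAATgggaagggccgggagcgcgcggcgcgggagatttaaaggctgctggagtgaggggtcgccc
CDC25A: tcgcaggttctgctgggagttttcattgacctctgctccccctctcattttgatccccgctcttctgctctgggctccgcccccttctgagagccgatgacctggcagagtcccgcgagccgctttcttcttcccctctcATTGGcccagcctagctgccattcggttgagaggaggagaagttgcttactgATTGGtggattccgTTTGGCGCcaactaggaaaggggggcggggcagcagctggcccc
GINS2: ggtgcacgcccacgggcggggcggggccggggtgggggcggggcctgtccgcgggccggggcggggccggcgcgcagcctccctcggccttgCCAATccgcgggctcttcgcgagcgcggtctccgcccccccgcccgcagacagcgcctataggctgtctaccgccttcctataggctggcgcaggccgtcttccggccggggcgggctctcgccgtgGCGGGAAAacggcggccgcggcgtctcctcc
RRM2 holds 3 CCAAT boxes and no E2F motif in this window, CDC25A holds 1 E2F motif and 2 CCAAT boxes, and GINS2 holds 1 of each. An E2F motif was found in 2 of 20 genes that fell (CDC25A and GINS2), in 1 of 43 that rose (SYNE2) and in 2.79% of all 27305 windows of this length. A CCAAT box was found in 9 of 20 that fell, in 13 of 43 that rose and in 33.04% of all windows. MCM2, the other replication gene that fell with an entry, holds neither and is not printed, so 2 of these 4 windows hold an E2F motif and 3 a CCAAT box. A further motif, the E-box (CACGTG), was searched and is not marked above. It was found in 2 of 20 genes that fell (MCM2 and TAFA5), in 1 of 43 that rose (ILDR2) and in 6.49% of all windows. A match is a run of letters and not a shown binding site.

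Outside replication, ZBP1, BDH1 and CBFA2T3 had the largest falls. ZBP1, a sensor of Z-form nucleic acids that can start cell death, had a log2 signal of 5.97 and 6.10 with MS275, against 8.50, 7.92 and 7.62 without it (-1.98 ± 0.23, adjusted p = 0.00158). BDH1, a mitochondrial enzyme of ketone body metabolism, had 6.39 and 6.45 with MS275, against 8.21, 8.30 and 8.56 without it (-1.94 ± 0.20, adjusted p = 0.000672). CBFA2T3, a co-repressor of the ETO family, which recruits histone deacetylases, had 5.98 and 5.53 with MS275, against 7.39, 7.67 and 7.68 without it (-1.83 ± 0.24, adjusted p = 0.00298). A second ZBP1 probe set, about as bright, gave -0.94 ± 0.34 and did not pass. The groups did not overlap in any of the 3, and ZBP1 and BDH1 passed with any array left out. CBFA2T3 was the 1 of 25 genes of the ETO and haematopoietic repressor list that fell (4%, against 0.137% of all genes). There were 0 rises, and the list's median was 0.06. CBFA2T3 did not pass without combination replicate 2 (changes from -2.06 to -1.60).

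TAFA5, a secreted chemokine-like protein, fell by 1.65 ± 0.26, and its other 2 probe sets gave -1.84 and -1.57 without passing. HPDL, an enzyme of ubiquinone synthesis, changed by -1.58 ± 0.27 and FUCA2, a secreted fucosidase, by -1.42 ± 0.24. MPDU1, which is needed to use dolichol-linked mannose when sugar chains are built, had 6.49 and 7.40 with MS275, against 8.66, 8.21 and 8.99 without it (-1.68 ± 0.33, adjusted p = 0.0392). It passed in 8 of the 17 fits with 1 array left out, with changes from -2.13 to -1.22. MFNG, a sugar transferase that modifies Notch receptors, changed by -1.39 ± 0.24 (adjusted p = 0.0188). EBP, a sterol isomerase, was the 1 of 24 genes of sterol synthesis and uptake that fell (-1.13 ± 0.22, adjusted p = 0.0367). That is 4.17% of the list, against falls in 0.137% of all genes. EBP passed in 4 of the 17 fits with 1 array left out. The lipoprotein receptor SCARB1 (-1.74 ± 0.40) did not pass (adjusted p = 0.0803). Both TUBA1B (-0.98 ± 0.17, adjusted p = 0.0216) and its near copy TUBA1A (1.44 ± 0.28, adjusted p = 0.0345) are alpha-tubulins; TUBA1B fell and TUBA1A rose. Probe sets of such close copies can share transcripts, so the values of either are uncertain. HPDL, FUCA2, MFNG, TAFA5, TUBA1A and TUBA1B did not pass with either combination array left out, and other arrays ended some of these calls too.

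NCAM1, a neural adhesion molecule also carried by many myeloma cells, had a log2 signal of 8.29 and 7.24 with MS275, against 4.32, 4.44 and 4.36 without it. That is a change of 3.39 ± 0.38, or 10.5-fold (adjusted p = 0.000914), with the groups far apart. A second probe set of NCAM1 gave 3.39 ± 0.46, while 5 others lay between -0.13 and 0.36. HEY1, a transcriptional repressor and Notch target, had 8.46 and 10.22 with MS275, against 5.26, 5.94 and 6.67 without it. It had the widest SE of the 15 largest rises (3.39 ± 0.66, adjusted p = 0.0392), and it passed in 8 of the 17 fits with 1 array left out (changes from 2.50 to 4.27). AHNAK, a very large scaffold protein at the cell membrane, had 10.66 and 10.03 with MS275, against 6.80, 7.56 and 6.79 without it. It rose by 3.30 ± 0.32 (adjusted p = 0.000672) from a level that was not low, and the 4 dimmer probe sets of AHNAK did not pass, with changes of -0.01 to 0.70.

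IL13RA2, a decoy receptor for interleukin 13, had 4.73 and 6.52 with MS275, against 2.41, 2.36 and 2.39 without it (3.23 ± 0.56, adjusted p = 0.0222). PDGFC, a platelet-derived growth factor, had 5.20 and 4.86 with MS275, against 2.41, 2.68 and 2.003 without it (2.67 ± 0.46, adjusted p = 0.0199). Both were near the bottom of the signal range without MS275 and apart from it with the drug. ADAM28, a membrane metalloprotease of lymphocytes, had 8.67 and 8.37 with MS275, against 6.51, 5.93 and 6.42 without it (2.23 ± 0.28, adjusted p = 0.00233). Its dimmer probe sets gave 2.43 ± 0.60, 0.57 ± 0.31 and 0.11 ± 0.29 and did not pass. CAV1, the coat protein of caveolae, had 8.80 and 8.67 with MS275, against 5.77, 7.06 and 5.79 without it. Rapamycin replicate 2 was above the other rapamycin arrays for CAV1 but below both combination arrays (2.53 ± 0.50, adjusted p = 0.041), and a second CAV1 probe set gave 3.06 ± 0.73 and did not pass. CAV1 passed in 6 of the 17 fits with 1 array left out. IL13RA2 did not pass without combination replicate 2 or with any 1 rapamycin array left out, with changes from 2.34 to 4.13. ADAM28 did not pass without combination replicate 1, and PDGFC did not pass with either combination array left out or without rapamycin replicate 1 or 3.

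HEXIM1 blocks P-TEFb, the kinase that releases paused RNA polymerase II. It had 9.07 and 9.79 with MS275, against 6.97, 6.83 and 7.57 without it (2.30 ± 0.29, adjusted p = 0.00233), and its second probe set gave 1.67 ± 0.39 without passing. TOX2, a DNA-binding protein of the HMG-box kind, had 6.03 and 7.23 with MS275, against 3.26, 3.75 and 3.66 without it (3.07 ± 0.46, adjusted p = 0.00817). CYP26B1, which breaks down retinoic acid, had 6.46 and 7.14 with MS275, against 3.77, 3.97 and 4.03 without it (2.88 ± 0.30, adjusted p = 0.000672). A second CYP26B1 probe set of nearly the same mean level gave 0.06 ± 0.17 and did not pass. The groups did not overlap in any of the 3, and HEXIM1 and TOX2 lost the threshold without combination replicate 2. FKBP1B, a close relative of rapamycin's partner FKBP1A, had 5.36 and 6.01 with MS275, against 2.98, 3.42 and 3.28 without it (2.46 ± 0.41, adjusted p = 0.0165). FKBP1A, added here for comparison, differed by -0.17 ± 0.38 (adjusted p = 1). FKBP1B did not pass with either combination array left out or without rapamycin replicate 1 or 3.

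TNNT1, the troponin T of slow muscle, changed by 2.53 ± 0.41, and OTOGL, an otogelin-like protein of the inner ear, by 2.62 ± 0.40. SYNE2, which ties the nucleus to the cytoskeleton, changed by 2.26 ± 0.43 (adjusted p = 0.0335), and passed in 9 of the 17 fits with 1 array left out. Its dimmer probe sets changed by -0.16 to 0.13 without passing. TPTE2P6, a pseudogene, changed by 3.06 ± 0.33, and its probe set may read transcripts of its near copies. TNNT1 and OTOGL did not pass with either combination array left out, and TNNT1 without rapamycin replicate 1 or 2.

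Genes outside the rule for naming also rose, chosen here after their values were seen. VCL, the focal adhesion protein vinculin, changed by 2.10 ± 0.37 and LGALS3, the sugar-binding galectin-3, by 1.67 ± 0.31. EEF1A2, a translation elongation factor of brain and muscle, changed by 1.89 ± 0.33 and GSDME, a gasdermin that forms pores in dying cells, by 1.12 ± 0.22. SMARCD3, a subunit of the SWI/SNF chromatin remodeller, changed by 1.27 ± 0.20 and BATF2, an interferon-induced AP-1 family factor, by 1.70 ± 0.22. CDON, a Hedgehog co-receptor, changed by 1.77 ± 0.18 and passed with any array left out, which the other 6 did not. These 7 are among 38 rises not named by the rule.

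Gene lists put these changes beside their pathways. Of 52 lists, 14 had a member past the threshold, and 65 of the 86 genes were in no list. Of 23 genes known to rise with histone deacetylase inhibitors in many cell lines 1 rose, GSN, the actin-severing protein gelsolin (6.57 and 7.09 with MS275, against 5.06, 5.11 and 5.33 without it; 1.66 ± 0.29, adjusted p = 0.0237). GSN has 6 dimmer probe sets with changes of -0.15 to 0.26, and it did not pass with either combination array left out or with any 1 rapamycin array left out. The 1 rise was 4.35% of the list, against rises in 0.298% of all genes, and the list's median was 0.20. TNFSF10, the death ligand TRAIL (1.44 ± 0.36), and KLF6 (0.98 ± 0.25) did not pass. Of 36 actin and adhesion genes AHNAK and GSN rose (5.56%, against 0.298% of all genes) and 0 fell (median 0.08). Of 30 Notch pathway genes HEY1 rose (3.33%) and MFNG fell (3.33%, against falls in 0.137% of all genes), with a median of 0.14. Without both narrow arrays 2 rose.

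Of 29 genes of plasma cell identity and myeloma surface 2 rose, NCAM1 and GPRC5D, an orphan receptor targeted in myeloma therapy (1.36 ± 0.25, adjusted p = 0.0324), and 0 fell. That is 6.90% of the list, against rises in 0.298% of all genes. Of 38 neuronal genes 2 rose, MAPT, the microtubule protein tau (1.23 ± 0.19, adjusted p = 0.00948), and SYT11, a synaptotagmin (1.26 ± 0.24, adjusted p = 0.0345), which is 5.26% of the list, with a median of 0.09. Dimmer probe sets of MAPT changed by -0.06 to 0.77 and those of SYT11 by 0.36 and 0.02, all without passing. Of 24 tubulin and microtubule genes MAPT and TUBA1A rose (8.33%) and TUBA1B fell (4.17%, against 0.137% of all genes). With so few members past the threshold, each share rests on 1 or 2 genes, and MAPT counts in both the neuronal and the tubulin share. The lists were chosen with earlier results of these data known, so these shares are a description. MAP2, a neuronal microtubule protein, differed by 3.35 ± 0.78 without passing (adjusted p = 0.0884). CA2, a carbonic anhydrase in the epithelial list, differed by 3.76 ± 0.82 (adjusted p = 0.0681) and DAZL, a germ cell RNA-binding protein, by 3.13 ± 0.89 (adjusted p = 0.195). The differences of MAP2 and CA2 were as large as those of the top rises, with wider errors. GPRC5D and SYT11 did not pass with any 1 of the 5 compared arrays left out, and MAPT with either combination array left out.

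Markers of other cell types were checked as whole lists. Of 28 fibroblast and muscle genes TNNT1 rose (3.57%, against 0.298% of all genes) and 0 fell. The list's summed level was 153.8 to 156.5 with MS275 and 145.4 to 149.1 without it. For 27 epithelial genes the sums were 135.9 to 138.7 with MS275 and 131.5 to 133.5 without it, with 0 past the threshold. The 21 T and NK cell genes summed to 99.13 to 99.95 with MS275 and 96.4 to 100.3 without it, and the 18 myeloid genes to 78.5 to 79.0 with MS275 and 75.2 to 77.7 without it, again with 0 past the threshold. The 17 B cell genes summed to 96.6 to 98.8 with MS275 and 92.7 to 95.9 without it, with 0 past the threshold. For the 11 red cell genes the sums were 67.9 to 69.6 with MS275 and 66.8 to 69.3 without it, again with 0 past the threshold. Sums were higher with MS275, without overlap, for the fibroblast and muscle, epithelial, myeloid and B cell lists. They overlapped for the T and NK cell and red cell lists. No marker can be called absent, since signal over background is not known; their part in the result was not tested.

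**Figure D3:**
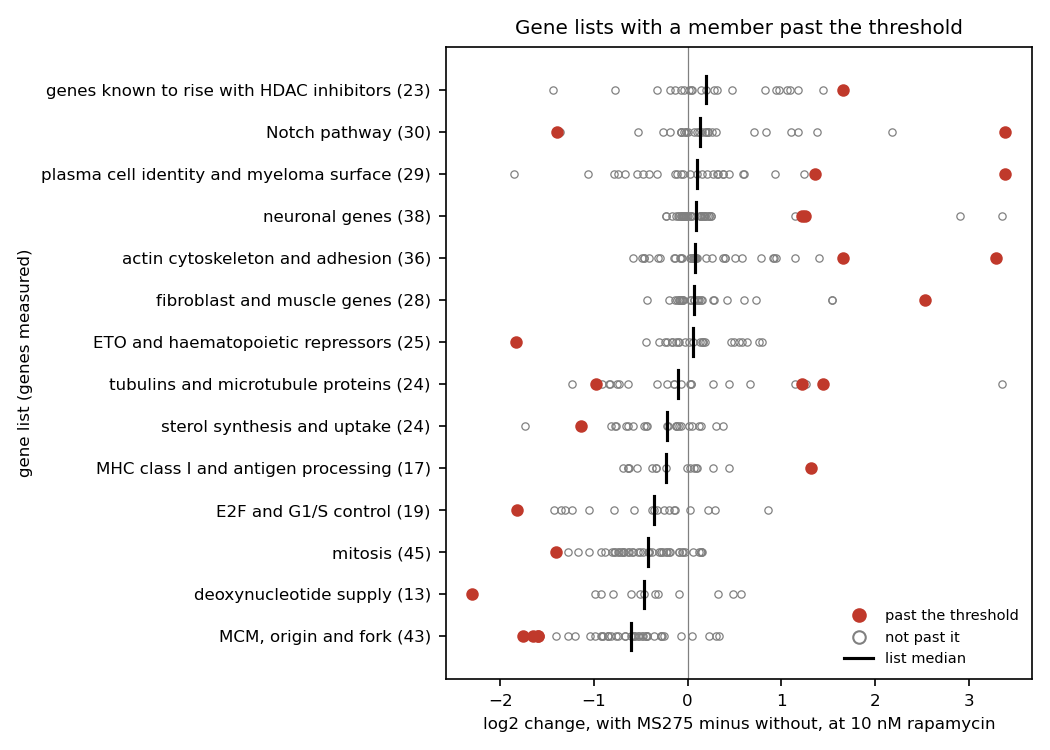
Log2 change of every measured member (x axis, with MS275 minus without, at 10 nM rapamycin) in the 14 lists with a member past the threshold (y axis, number measured in brackets). Filled points passed, open points did not, and bars are list medians; the MCM, origin and fork list has the lowest median (-0.60) and 4 members past the threshold.

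The other 38 lists had 0 members past the threshold. Among the immune lists, the 16 measured MHC class II genes had a median of 0.47, with 14 above 0. HLA-DRB4 (1.42 ± 0.38, adjusted p = 0.152) and HLA-DOA (1.24 ± 0.36, adjusted p = 0.2) had the smallest adjusted p there. By contrast, of 17 genes of MHC class I and antigen processing NLRC5, which activates their transcription, rose (1.32 ± 0.27, adjusted p = 0.0499) and 0 fell. That is 5.88% of the list, against rises in 0.298% of all genes, at a list median of -0.23. NLRC5 passed in 4 of the 17 fits with 1 array left out. The 24 interferon response genes had a median of 0.10. Early response factors (33 genes) had a median of 0.30, with IER3 (1.13 ± 0.24, adjusted p = 0.0649) and the RNA-decay factor ZFP36 (1.54 ± 0.36, adjusted p = 0.0886) closest to the threshold.

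Several growth and housekeeping lists had medians below 0 without a passing member, but the 34 cytosolic ribosomal proteins and elongation factors had a median of 0.08 with 26 above 0. The 30 genes of ribosome biogenesis had a median of -0.44 with 2 above 0, and UTP20, which helps process ribosomal RNA, differed by -0.98 ± 0.24 (adjusted p = 0.103). The 31 proteasome genes had a median of -0.42 with 1 above 0. The medians were -0.66 for 17 histone genes and -0.50 for 28 genes of glycolysis and hypoxia. They were -0.39 for 27 of the unfolded protein response and secretion and -0.33 for 32 of oxidative phosphorylation. FASN, the fatty acid synthase, differed by -1.84 ± 0.41 (adjusted p = 0.0721) and HSP90B1, a chaperone of the secretory pathway, by -1.21 ± 0.27 (adjusted p = 0.0753). The 38 genes of the mTOR pathway and its brakes had a median of -0.003, in which FOXO1, a transcription factor downstream of AKT, differed by 1.09 ± 0.28 and TSC2, a brake on mTOR, by -0.85 ± 0.28, neither past the threshold.

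Of 24 genes of interest 5 passed: HEY1 and GSN rose, and RRM2, CDC25A and CBFA2T3 fell. MYC had a log2 signal of 12.06 and 12.84 with MS275, against 12.50, 12.13 and 12.80 without it. The groups overlapped, and the difference was -0.03 ± 0.30, with a 95% confidence interval of -0.67 to 0.60. The 11 genes of the MYC and MAX network had a median of 0.06 and the 26 of MYC protein turnover -0.09, with 0 past the threshold. FBXW7, which marks MYC protein for breakdown, differed by 0.21 ± 0.49, and AURKA, a mitotic kinase that can shield MYC proteins from it, by -0.31 ± 0.29. The drug's targets differed by -0.34 ± 0.29 for HDAC1, 0.19 ± 0.48 for HDAC2 and 0.04 ± 0.31 for HDAC3, and MTOR by -0.20 ± 0.20. CDKN1A, the cell cycle inhibitor p21, differed by 1.09 ± 0.48 (adjusted p = 0.629), and BCL2L11, the death activator BIM, by 0.76 ± 0.33 (adjusted p = 0.576). None of these 9 passed.

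**Figure D4:**
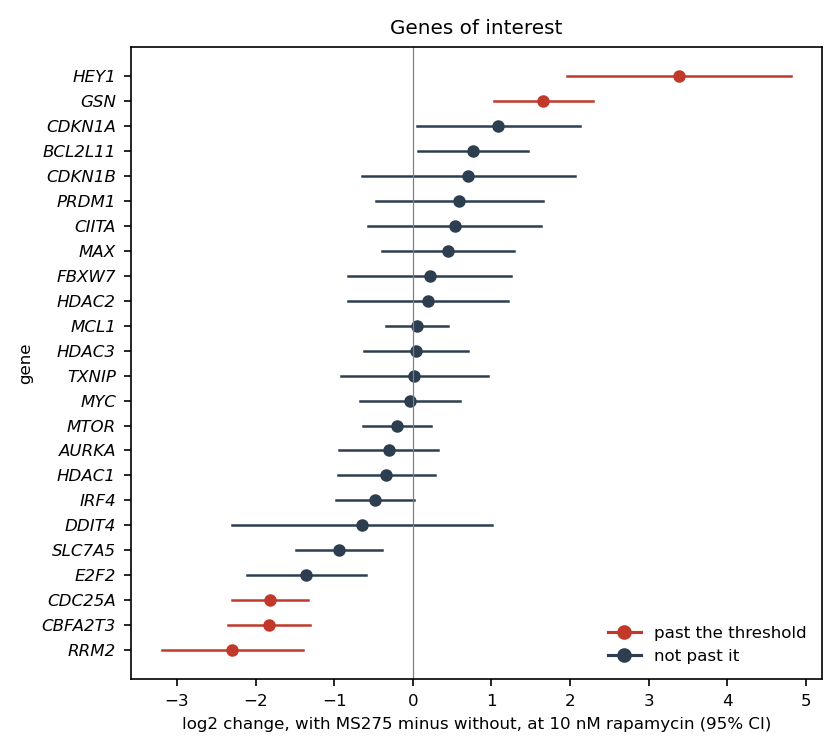
Log2 change with MS275 minus without at 10 nM rapamycin (x axis) for the 24 genes of interest (y axis); points are estimates and bars 95% confidence intervals. HEY1, GSN, RRM2, CDC25A and CBFA2T3 passed the threshold, and MYC lies at -0.03.

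Whether MS275 acted differently on top of 10 nM rapamycin was tested as a difference of MS275 effects. Against its effect in cells without rapamycin, 0 of 19775 genes passed in limma (0%), with 194 at an unadjusted p under 0.05. Against its effect on 1 nM rapamycin, 0 passed (0%), with 123 at an unadjusted p under 0.05. A gene's difference had a 95% confidence interval of 0.81 to either side at the median, so the 0 does not show that MS275 acted alike. MS275 without rapamycin raised 205 genes and lowered 90 (1.04% and 0.455% of all genes, 1.49% together). On 1 nM rapamycin it raised 185 and lowered 58 (0.936% and 0.293%, 1.23% together). Neither shares an array with the comparison at 10 nM, but all share the estimate of the spread.

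Most of the 86 genes also passed in the other MS275 comparisons. Of the 59 that rose at 10 nM, 52 rose with MS275 without rapamycin (88.1% of the 59 and 25.4% of the 205), and 55 rose on 1 nM rapamycin (93.2% of the 59 and 29.7% of the 185). Of the 27 that fell, 16 fell without rapamycin (59.3% of the 27 and 17.8% of the 90), and 20 fell on 1 nM rapamycin (74.1% of the 27 and 34.5% of the 58). In all 3 comparisons 50 rose and 14 fell. All 59 rises had the same sign in both other comparisons, and all 27 falls on 1 nM rapamycin and 26 of 27 without rapamycin. How many of all genes tested kept their sign was not counted, so these counts are a description. The median change of the 27 falls was -1.02 without rapamycin, -1.13 on 1 nM and -1.40 on 10 nM. The 27 were chosen for their fall at 10 nM, so these medians are a description.

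The genes that passed at 10 nM and in neither other MS275 comparison were CEP112 and ZNF521, which rose, and EBP, FUCA2, MPDU1, RABGEF1 and TUBA1B, which fell. On 1 nM rapamycin CEP112 differed by 0.80, ZNF521 by 0.78, EBP by -0.79, MPDU1 by -1.04 and TUBA1B by -0.64. Their limma adjusted p there ran from 0.0514 to 0.128, so missing the threshold does not make these changes particular to 10 nM. CEP112, ZNF521 and RABGEF1 each passed in 7 of the 17 fits with 1 array left out. RABGEF1, which activates the endosomal RAB5, differed by 0.02 ± 0.16 without rapamycin, by -0.62 ± 0.16 on 1 nM and by -0.95 ± 0.18 on 10 nM. FUCA2 differed by -0.23 ± 0.21 without rapamycin, by -0.84 ± 0.21 on 1 nM and by -1.42 ± 0.24 on 10 nM. The differences from MS275 without rapamycin were -0.97 ± 0.25 for RABGEF1 and -1.20 ± 0.32 for FUCA2, with unadjusted p of 0.00143 and 0.00198. Neither passed over all genes (adjusted p = 1 and 1). The MS275 effect on RRM2 was -1.51 without rapamycin (adjusted p = 0.0633), -2.14 on 1 nM and -2.30 on 10 nM. On MCM4 it was -1.47 without rapamycin, -0.96 on 1 nM and -1.65 on 10 nM, past the threshold each time. On GINS2 it was -0.64 without rapamycin, -1.50 on 1 nM and -1.59 on 10 nM, with a difference from MS275 without rapamycin of -0.95 ± 0.32 (95% confidence interval -1.64 to -0.27, adjusted p = 1).

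**Figure D5:**
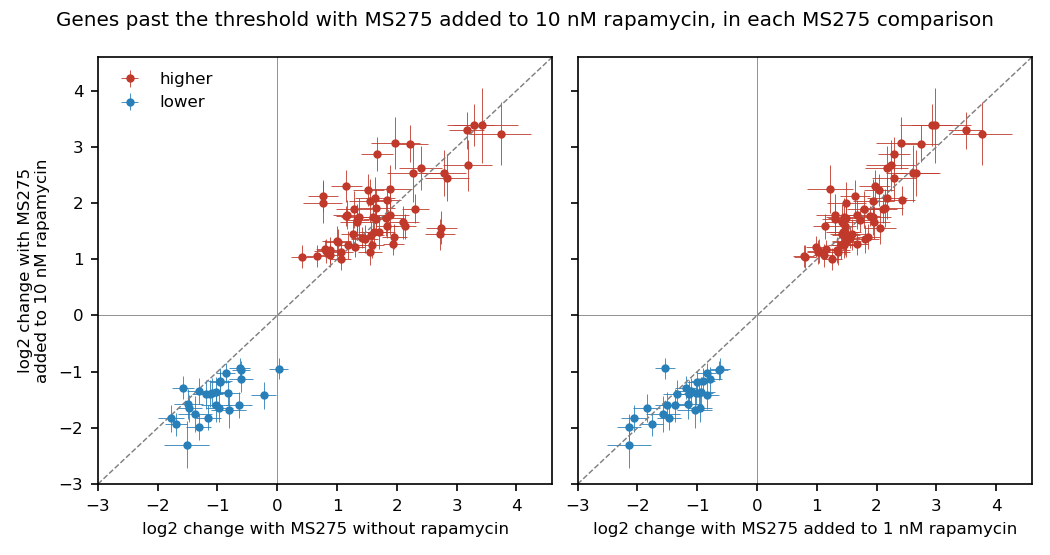
Log2 change with MS275 added to 10 nM rapamycin (y axis) against the change with MS275 without rapamycin (left x axis) and with MS275 added to 1 nM rapamycin (right x axis), for the 86 genes past the threshold at 10 nM; bars are SE and the dashed line marks equal change. All 59 rises lie above 0 on every axis, and 26 of the 27 falls lie below 0 on the left x axis and 27 of 27 on the right.

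The smallest adjusted p of a difference belonged to DISP2 and C3AR1, chosen here after their values were seen. C3AR1, the receptor of complement fragment C3a, had a log2 signal of 5.42 and 5.36 with both drugs, against 4.70, 4.33 and 4.64 with 10 nM rapamycin, a difference of 0.83 ± 0.20 (adjusted p = 0.107). Without rapamycin it had 8.06, 7.84 and 8.05 with MS275, against 5.31, 5.55 and 5.05 in untreated cells, a change of 2.69 ± 0.18. On 1 nM rapamycin C3AR1 changed by 1.29 ± 0.18 with MS275, past the threshold (limma adjusted p = 0.00313). DISP2, a relative of the protein that releases Hedgehog, differed by 2.02 ± 0.17 with MS275 without rapamycin, by 0.59 ± 0.17 on 1 nM and by 0.19 ± 0.19 on 10 nM, of which the first passed. The MS275 effect at 10 nM less that without rapamycin was -1.86 ± 0.27 in C3AR1 (95% confidence interval -2.44 to -1.27, adjusted p = 0.0733) and -1.83 ± 0.25 in DISP2 (-2.37 to -1.30, adjusted p = 0.062). Both passed with array weights, quantile normalization, median and MAD scaling, the mean of probe sets, or without replicate 2 of 1 nM rapamycin with MS275 (adjusted p from 0.00687 to 0.0435).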

How the data were processed

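RNA of L363 cells was measured on 17 arrays. The authors deposited log2 signals per probe set, for which the submitters' processing notes name affy and RMA without versions. The log2 values were used as deposited. Of 54613 probe sets, 41091 have 1 gene symbol, 1801 several and 11721 none in the platform annotation, and 41037 of the 41091 matched RefSeq (GRCh38.p14) by Entrez ID. For each gene the brightest of its singly named probe sets was used, by the mean of 17 arrays. Group means of 6 groups were fitted in R 4.3.3 with limma 3.58.1 (lmFit, eBayes), Benjamini-Hochberg adjusted over 19775 genes; the threshold is an adjusted p under 0.05, and the fit was tested on simulated data. SE is the fit's standard error and SD that between arrays.

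Named by rule are the 15 genes that rose most and the 15 that fell most among those past the threshold with no overlap of arrays, up to 4 members of each list (2 where none passed) by adjusted p, 24 genes of interest and any gene past the threshold in a difference of effects. Of 1375 entries in 52 lists 1251 were measured; under 80% were measured in 5 lists. Members and lists were chosen with earlier results of these data known. Alternatives were a replicate block, array weights, other scalings, gene filters and probe-set rules, and single arrays left out. Detection calls were not used here; the number of arrays limits the precision.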

Additional observations from a re-analysis of the deposited data

How the results depend on the processing

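Of 4110 values of named genes under the alternatives, 3773 kept their direction and side of the threshold, 232 lost the threshold, 105 gained it and 0 reversed. The counts of higher and lower genes with MS275 without rapamycin (205 and 90), on 1 nM rapamycin (185 and 58) and on 10 nM (59 and 27) moved as follows, in that order. A replicate block gave 413 and 249, 384 and 175, and 227 and 111. The labels do not say what the numbers mark, and the combination shares only numbers 1 and 2 with 10 nM rapamycin. Deviations from the group mean correlated at 0.103 for number 1 and -0.633 for number 2, and at 0.633 for combination 1 with rapamycin 2 and 0.586 for combination 2 with rapamycin 3. With 2 combination arrays the deviations of 1 mirror those of the other. The -0.633 and the 0.633 are therefore the same value with its sign turned, and not separate observations. Over all probe sets, 10 nM rapamycin replicates 1, 2 and 3 correlated best with the same numbers of 1 nM rapamycin (r = 0.996, 0.997 and 0.989). Combination replicates 1 and 2 correlated best with numbers 2 and 3 of 1 nM rapamycin with MS275 (r = 0.994 and 0.993). The block joins arrays by number, the main fit joins none, and what links these arrays was not tested. Whether the combination was renumbered after the dropped array is not known from the labels, so no pairing is claimed either way. Fitting only the compared arrays gave 9 and 0, 32 and 7, and 0 and 0. Array weights gave 772 and 732, 670 and 252, and 219 and 106. Keeping only genes brighter than the median gave 99, 93 and 22 higher genes. Median and MAD scaling gave 157 lower genes without rapamycin and 117 higher genes on 1 nM; on 10 nM rises were then 59.7% of the genes that passed, against 68.6% as deposited. A mean trend with robust eBayes gave 56 lower genes without rapamycin. Leaving out both narrow arrays gave 162 and 100 on 10 nM and 243 lower genes without rapamycin. Differences between MS275 effects with and without 10 nM rapamycin had 2 lower genes, C3AR1 and DISP2, under array weights, quantile normalization, median and MAD scaling and the mean of probe sets.

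With 1 array left out in turn, the counts ran from 79 to 240 higher and 18 to 156 lower without rapamycin, from 63 to 271 and 17 to 142 on 1 nM, and from 9 to 98 and 2 to 59 on 10 nM. The differences from MS275 without rapamycin ran from 0 to 2 lower and 0 to 0 higher genes, and those from 1 nM were 0 to 0. Of the 86 genes, 51 (32 higher and 19 lower) passed without any 1 of the 12 arrays outside the comparison. Apart from smaller groups where arrays were left out, the cause of these shifts was not tested. Signal over background is not known, so a dim gene's change may be understated.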
